A study of Mus musculus with 39 samples.

Results

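Polyadenylated RNA was sequenced from the livers of 5 male mice that drank dexamethasone (Dex) for 3 weeks and of 11 untreated male mice, and the 2 sets of livers were compared gene by gene. These 16 libraries are all the livers given Dex for 3 weeks and all the untreated livers among the 39 libraries of the series. The Dex arm held 2 wild-type (WT, E47+/+) and 3 E47KO livers, and the untreated arm 5 WT and 6 E47KO livers. E47KO mice carry the E47-/- genotype in every tissue, so they lack 1 of the proteins made from the Tcf3 gene, a basic helix-loop-helix factor. All mice were of the C57BL/6 strain, kept on chow, and 10 to 16 weeks old. Dex, a synthetic glucocorticoid, was given in the drinking water at 10 µg per ml. Genotype was a covariate in every comparison that pooled the 2 genotypes. A further 8 livers, from mice given corticosterone (Cort) in the water for 3 weeks at 100 µg per ml, served for 1 direct comparison of the 2 steroids.

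Treatment coincided with several other differences between the arms. The Dex libraries are labelled unstranded and the untreated libraries stranded, and counts made without regard to strand were used for both. The mice on Dex were killed after a glucose tolerance test, that is, a night without food and an injection of 2 g glucose per kg. The untreated mice are labelled untreated also at sacrifice. No hour of sacrifice is given in the sources used here. The Dex libraries were counted against a list of 46078 genes and the untreated ones against 45706, of which all 45706 were shared and used. The Dex tables close with summary lines of the type that the counter HTSeq writes, so the counter may differ as well. Per the study's methods Dex was dissolved in ethanol for the water, whereas the other mice are labelled untreated. The effects of Dex, its solvent, the library type, the counting and the tolerance test therefore cannot be told apart in the values below. The words "Dex" and "untreated" name the arms with all that goes with them.

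Glucocorticoids act through the glucocorticoid receptor (GR), a nuclear receptor that moves into the nucleus once it binds its ligand and then raises or lowers the transcription of genes it occupies. In the liver GR is known for switching on gluconeogenesis and amino acid breakdown during fasting, for restraining inflammation, and for setting the rhythm of metabolic genes over the day. Long exposure to glucocorticoids is known to cause raised blood glucose and a fatty liver, and synthetic ligands also suppress the adrenal's own corticosterone.

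The Dex libraries held 17495304 to 21447274 reads assigned to genes and the untreated ones 30870655 to 39014715. Reads listed as mapping to several places were set against the number assigned to genes. They came to 32.4 to 42.1% of that number in the Dex libraries and 11.2 to 15.2% in the untreated ones. The 2 kinds of count table name this summary line differently, so these shares may not be the same measure and cannot be compared strictly. The first principal component, with 49.7% of the variance, separated the 5 Dex livers from all untreated ones. The second (13.6%) separated untreated E47KO replicate 1 and WT replicates 1 and 2, which carry the 3 lowest library numbers of their arm, from the other 8. These are called the low-numbered and the high-numbered untreated livers, and Dex was also set against each set alone. The hepatocyte markers Alb, Apob and Ahsg were abundant in every library, as the label liver requires. Tcf3 stood at 10.7 to 17.1 CPM in all 16 livers, but a count over the whole gene does not check the loss of E47 alone. Levels are given in CPM, the reads of a gene scaled to a standard library size, after adjustment of that size by the trimmed mean of M values. Log2 fold changes are Dex minus untreated with their standard error (SE). The p-values come from the quasi-likelihood test of edgeR and were adjusted over all genes tested by the method of Benjamini and Hochberg. A value in parentheses after a pair of levels is the log2 fold change ± SE with its adjusted p. The labels number the libraries of a group as replicates without naming the animal, so the p-values measure the spread between these libraries. Of the 151 genes named with tests, 57 overlap another annotated gene, whose reads cannot be told apart in counts made without strand.

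Of the 15362 genes tested, 3823 (24.9%) were higher and 3780 (24.6%) lower on Dex at an adjusted p below 0.05, 49.5% in all. When the test required a change beyond 2-fold, 647 genes (4.21%) were higher and 477 (3.11%) lower, 7.32% in all. The median log2 fold change over all genes was -0.01, but it differed by annotated gene class. It was -0.05 over the 13424 protein-coding genes, 0.36 for lincRNA, 0.53 for antisense genes and 0.68 for processed pseudogenes. Library type and Dex cannot be told apart in this shift. All 5 Dex livers lay above all 11 untreated livers for 10.9% of the genes and below them for 10.6%, together 21.5%. With the single strand column of the untreated libraries in place of the count without strand, 1062 genes were higher beyond 2-fold, and among genes that overlap no other annotated gene 310 were higher and 250 lower. Counts for single pathways are read against these shares, which are high.

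**Figure D1:**
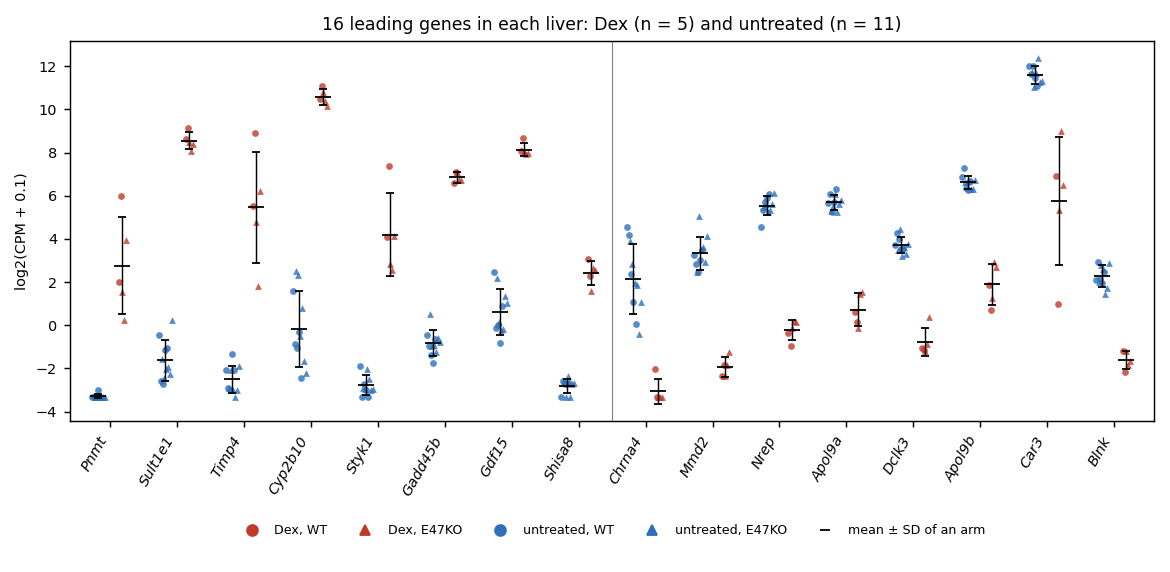
Expression on a log2(CPM + 0.1) axis of the 8 genes with the largest and the 8 with the smallest fold change in each of the 16 livers, WT as circles and E47KO as triangles, with the mean and SD of each arm. For all 16 genes the 5 Dex livers lie on one side of the 11 untreated livers, which was a condition of their choice.

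The largest increases included enzymes of steroid, drug and catecholamine metabolism and stress-induced signals. These 16 leading genes were chosen by their fold change among genes whose arms did not overlap, so the choice itself fixed their separation. Sult1e1, the sulfotransferase that inactivates oestrogens, reached 402 and 565 CPM (WT) and 362, 273 and 339.6 CPM (E47KO) on Dex. Untreated livers had 0.0518 to 1.10 CPM with a median of 0.160 of it, and the log2 fold change was 10.32 ± 0.43 (SE), adjusted p = 4.02e-11. Cyp2b10, a cytochrome P450 driven by the nuclear receptor CAR, stood at 1455 and 2201 CPM (WT) and 1781, 1342 and 1149.7 CPM (E47KO) on Dex and at 0.0822 to 5.69 CPM with a median of 0.619 in untreated livers, a log2 fold change of 10.08 ± 0.78 (SE), adjusted p = 4.16e-08. Both went from a trace to the level of abundant liver transcripts. Gadd45b, a growth-arrest and stress gene, was at 96.1 and 136 CPM (WT) and 139, 106 and 107 CPM (E47KO) on Dex and at 0.198 to 1.34 CPM with a median of 0.429 without treatment (7.85 ± 0.24, adjusted p = 1.88e-12). Gdf15, a stress-induced cytokine of the TGF-β family, was at 269 and 411 CPM (WT) and 265, 242 and 250.2 CPM (E47KO) on Dex and at 0.471 to 5.46 CPM with a median of 1.01 without treatment (7.26 ± 0.47, adjusted p = 5.16e-09).

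The other leading increases varied more between the treated livers. Timp4, an inhibitor of matrix metalloproteinases, was at 45.6 and 485 CPM (WT) and 27.9, 3.41 and 75.6 CPM (E47KO) on Dex and at 0 to 0.297 CPM with a median of 0.0342 in untreated livers (10.26 ± 0.74, adjusted p = 1.67e-08). Styk1, a kinase, was at 16.8 and 164 CPM (WT) and 7.15, 5.83 and 17.8 CPM (E47KO) on Dex against 0 to 0.170 CPM with a median of 0.0283 (9.31 ± 0.63, adjusted p = 9.04e-09). For both genes, and for Pnmt, the second WT liver on Dex was the highest of all 16. Pnmt, the enzyme that turns noradrenaline into adrenaline, was at 3.901 and 62.9 CPM (WT) and 2.86, 1.08 and 15.5 CPM (E47KO) on Dex, while the 11 untreated livers held 1 read of it in all. The ratio of Dex to untreated was 5935 (95% interval 1064 to 234558), adjusted p = 3.61e-08. Shisa8 was at 8.39 and 4.74 CPM (WT) and 2.96, 6.24 and 5.72 CPM (E47KO) on Dex against 0 to 0.0953 CPM with a median of 0.0542 (6.82 ± 0.35, adjusted p = 3.42e-10).

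The steepest decreases were not of a single pathway. Car3, a carbonic anhydrase of hepatocytes and fat cells, was at 2135 to 5335 CPM with a median of 3210.1 in untreated livers and at 122 and 1.86 CPM (WT) and 40.8, 513 and 91.0 CPM (E47KO) on Dex, a log2 fold change of -4.54 ± 0.82 (SE), adjusted p = 0.000240. It was also the most variable of them on Dex, with the lowest and the highest treated liver far apart. Apol9b and Apol9a, near-identical apolipoprotein L genes whose reads a counter can split or drop, fell together. Apol9b was at 3.56 and 1.56 CPM (WT) and 2.29, 7.63 and 6.42 CPM (E47KO) on Dex and at 76.2 to 156 CPM with a median of 100.4 without treatment (-4.56 ± 0.34, adjusted p = 2.33e-08). Apol9a was at 0.810 to 2.86 CPM on Dex and 37.9 to 78.9 CPM with a median of 50.6 without it (-4.91 ± 0.31, adjusted p = 4.50e-09).

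Nrep was at 0.683 and 0.420 CPM (WT) and 0.810, 1.03 and 1.03 CPM (E47KO) on Dex against 23.5 to 70.1 CPM with a median of 48.7 in untreated livers (-5.92 ± 0.30, adjusted p = 3.85e-10). Dclk3, a doublecortin-like kinase, was at 0.334 to 1.19 CPM against 9.22 to 22.0 CPM with a median of 12.4 (-4.64 ± 0.33, adjusted p = 1.36e-08), and Mmd2 at 0.0953 to 0.324 CPM against 5.39 to 33.6 CPM with a median of 9.56 (-6.09 ± 0.54, adjusted p = 1.78e-07). Blnk, an adaptor of B cell receptor signalling, was at 0.120 to 0.341 CPM against 2.59 to 7.60 CPM with a median of 4.35 (-4.36 ± 0.36, adjusted p = 8.01e-08). Chrna4, a subunit of the nicotinic acetylcholine receptor, was at 0.651 to 23.4 CPM with a median of 3.74 in untreated livers and the 5 treated livers held 3 reads of it in all. Its level was 15.1 to 23.4 CPM in the low-numbered untreated livers and 0.651 to 7.11 CPM in the high-numbered ones. The ratio of untreated to Dex, over reads pooled from all livers of an arm, was 221 (95% interval 75.5 to 1072), adjusted p = 0.000208. Both intervals are exact and cover counting error only.

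**Figure D2:**
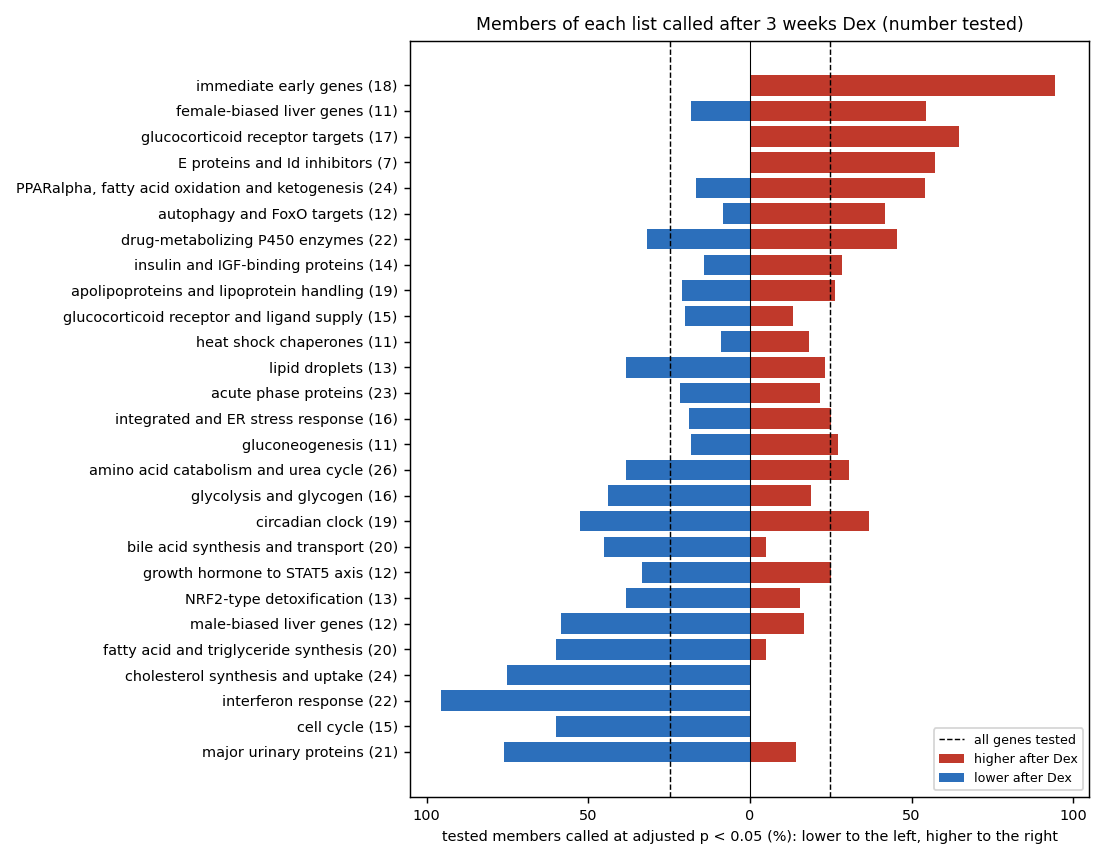
For each gene list, the percent of tested members that were higher (red, to the right) and lower (blue, to the left) on Dex at an adjusted p below 0.05, with the number tested in parentheses and the percent over all genes as dashed lines. Interferon response and cholesterol synthesis genes lie on the lower side and immediate early genes and GR targets on the higher side, whereas other lists split.

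Genes known as direct targets of GR were higher as a group, but the classical ones did not move alike. Of 17 tested, 11 rose, none fell and 6 were not called, against 24.9% of all genes higher. Their median log2 fold change was 1.16. Fkbp5, the co-chaperone that dampens GR's affinity for its ligand, was at 400.2 and 597 CPM (WT) and 405, 350.4 and 78.0 CPM (E47KO) on Dex and at 18.1 to 108 CPM with a median of 52.1 in untreated livers (2.61 ± 0.38, adjusted p = 3.39e-05). Cdkn1a, the cell cycle inhibitor p21, was at 127 and 188 CPM (WT) and 195, 153 and 13.7 CPM (E47KO) on Dex and at 0.650 to 3.31 CPM with a median of 1.53 without treatment (6.29 ± 0.43, adjusted p = 1.01e-08). The third E47KO liver on Dex was far below the other 4 for both, and overlapped the untreated livers for Fkbp5. It was the lowest of the 5 treated livers for all 17 GR targets, and without it 13 of the 17 were called higher and 0 lower.

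The metallothioneins, which bind zinc and copper and are induced by glucocorticoids, rose as well. Mt1 was at 634 and 991 CPM (WT) and 525, 877 and 408 CPM (E47KO) on Dex against 7.05 to 117 CPM with a median of 53.6 (3.72 ± 0.59, adjusted p = 7.55e-05), and Mt2 at 352 and 663 CPM (WT) and 288.2, 574 and 224 CPM (E47KO) on Dex against 2.27 to 95.8 CPM with a median of 16.6 (3.77 ± 0.83, adjusted p = 0.00124). Neither arm overlapped the other for these genes. Zbtb16, a transcriptional repressor, was at 79.7 and 114 CPM (WT) and 102, 77.5 and 12.2 CPM (E47KO) on Dex against 1.95 to 41.5 CPM with a median of 14.8 (2.19 ± 0.46, adjusted p = 0.000831), and the third E47KO liver lay inside the untreated range. Cebpd, a transcription factor of the acute phase, was at 14.8 and 29.4 CPM (WT) and 17.5, 13.3 and 10.8 CPM (E47KO) on Dex against 1.79 to 7.19 CPM with a median of 2.83 (2.45 ± 0.28, adjusted p = 2.34e-06).

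Tat, the tyrosine aminotransferase long used as a readout of glucocorticoid action in liver, was not called. It was at 2382 and 2758 CPM (WT) and 2959, 2675 and 1064 CPM (E47KO) on Dex and at 889.7 to 2870.0 CPM with a median of 1566 in untreated livers (0.35 ± 0.27, adjusted p = 0.286). Tsc22d3, the anti-inflammatory leucine zipper GILZ, was at 74.7 and 61.1 CPM (WT) and 64.7, 86.5 and 35.1 CPM (E47KO) on Dex against 41.4 to 214 CPM with a median of 80.8 (-0.69 ± 0.36, adjusted p = 0.126), and Per1 at 38.0 and 53.8 CPM (WT) and 37.7, 36.6 and 14.2 CPM (E47KO) on Dex against 25.7 to 56.1 CPM with a median of 38.2 (-0.13 ± 0.23, adjusted p = 0.663). The 2 arms overlapped for these 3 genes.

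Sgk1, the serum and glucocorticoid regulated kinase that acts on ion channels, was higher in every treated than in any untreated liver. It was at 42.7 and 57.7 CPM (WT) and 44.9, 41.6 and 32.0 CPM (E47KO) on Dex against 9.31 to 16.6 CPM with a median of 14.1 without treatment, a log2 fold change of 1.66 ± 0.14 (SE), adjusted p = 1.24e-07. Its promoter is shown because it was the only one of the 14 GR target promoters at hand with a full palindromic glucocorticoid response element, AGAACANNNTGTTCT, searched on both strands. In the RefSeq promoter set (GRCm38.p6, 250 bases before to 50 after the start), 2 of the 11149 tested genes with an entry, or 0.0179%, held these letters. In Sgk1 (chr10:21993640-21993939, plus strand) the match, in capitals, began at position -189 from the start. A match of letters is a description and not a binding site, and GR also binds enhancers outside such windows.
Sgk1: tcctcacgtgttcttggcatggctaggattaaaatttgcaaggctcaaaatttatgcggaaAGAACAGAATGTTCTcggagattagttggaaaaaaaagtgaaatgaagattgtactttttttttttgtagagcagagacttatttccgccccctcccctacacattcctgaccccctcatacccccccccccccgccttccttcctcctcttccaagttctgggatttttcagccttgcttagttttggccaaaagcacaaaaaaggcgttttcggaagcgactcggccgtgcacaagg

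Most genes of the receptor and its co-regulators were not called, while the carrier of the natural hormone fell. Of 15 genes of GR and ligand supply, 2 rose (4 without the second E47KO liver on Dex) and 3 fell. Serpina6, the corticosteroid-binding globulin of plasma, was at 22.7 and 5.63 CPM (WT) and 9.10, 68.0 and 27.0 CPM (E47KO) on Dex and at 166 to 567.8 CPM with a median of 344 in untreated livers (-3.76 ± 0.50, adjusted p = 1.17e-05). Srd5a1, a steroid reductase that clears glucocorticoids, was at 34.4 and 21.5 CPM (WT) and 21.8, 28.7 and 35.1 CPM (E47KO) on Dex against 74.3 to 136 CPM with a median of 121 (-2.03 ± 0.16, adjusted p = 6.60e-08). Nr3c2, the mineralocorticoid receptor, was at 4.80 to 8.42 CPM against 15.0 to 23.9 CPM with a median of 18.0 (-1.47 ± 0.14, adjusted p = 2.73e-07). These 3 were the members that fell, and in each the arms did not overlap. Nr3c1, which encodes GR, was at 78.4 to 90.1 CPM on Dex and 54.1 to 116 CPM with a median of 99.1 without it (-0.13 ± 0.16, adjusted p = 0.511). The sign of its difference turned with the untreated livers used, and it was not called over the 11 of them. Hsd11b1, which regenerates active glucocorticoid, was at 401 to 725 CPM against 410.3 to 622 CPM with a median of 477 (0.12 ± 0.13, adjusted p = 0.483).

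Gluconeogenic enzymes did not move as a group. Of 11 tested, 3 rose and 2 fell, with a median of -0.12. Pck1, which makes phosphoenolpyruvate, was at 4969 and 6104 CPM (WT) and 4519, 4212 and 5352 CPM (E47KO) on Dex against 2469.9 to 4569 CPM with a median of 3687 (0.52 ± 0.15, adjusted p = 0.00987), a small rise that was not called against the low-numbered untreated livers alone. G6pc, the glucose-6-phosphatase that releases glucose, went the other way, at 108 and 86.2 CPM (WT) and 94.1, 121 and 135 CPM (E47KO) on Dex against 76.3 to 662 CPM with a median of 396 (-1.79 ± 0.38, adjusted p = 0.000954). Ppargc1a, the coactivator that drives these enzymes in fasting, was at 56.9 and 55.8 CPM (WT) and 57.1, 53.5 and 36.7 CPM (E47KO) on Dex against 7.94 to 20.8 CPM with a median of 11.5 (2.19 ± 0.17, adjusted p = 4.02e-08), with no overlap. Fbp1, fructose-bisphosphatase, fell (-0.76 ± 0.16, adjusted p = 0.00105), and Pcx, pyruvate carboxylase, rose slightly (0.39 ± 0.10, adjusted p = 0.00347).

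Glycolysis and glycogen genes moved in both directions. Of 16 tested, 3 rose and 7 fell (median -0.19). Pklr, the last enzyme of glycolysis in hepatocytes, was at 56.6 and 99.6 CPM (WT) and 43.6, 43.1 and 67.1 CPM (E47KO) on Dex against 115 to 409.7 CPM with a median of 248 (-1.88 ± 0.27, adjusted p = 2.68e-05). All 5 treated livers lay below all untreated ones for Pklr. Pygl, glycogen phosphorylase, fell (-0.77 ± 0.15, adjusted p = 0.000512), as did the glucose transporter gene Slc2a2 (-0.90 ± 0.17, adjusted p = 0.000303).

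Among the genes of insulin signalling and the IGF-binding proteins, 4 of 14 rose and 2 fell, or 1 without any Dex liver but the second WT one or without untreated WT replicate 1 or 2. Igfbp1, a secreted IGF carrier that insulin represses, was the steepest. It was at 1448 and 1769 CPM (WT) and 1943, 909 and 1236 CPM (E47KO) on Dex against 3.71 to 97.1 CPM with a median of 28.3 in untreated livers, a log2 fold change of 5.43 ± 0.58 (SE), adjusted p = 1.38e-06. Irs2, an adaptor of the insulin receptor, was at 13.8 and 41.1 CPM (WT) and 18.0, 9.47 and 14.5 CPM (E47KO) on Dex against 2.52 to 11.5 CPM with a median of 4.66 (1.79 ± 0.35, adjusted p = 0.000516). Trib3, an inhibitor of Akt, was at 17.8 to 26.0 CPM against 2.20 to 19.4 CPM with a median of 4.44 (1.44 ± 0.44, adjusted p = 0.0120), and 1 untreated E47KO liver, at 19.4 CPM, lay within the Dex range.

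Genes of lipid synthesis were lower on Dex along 2 pathways. Of 20 genes of fatty acid and triglyceride synthesis, 12 fell and 1 rose, with a median log2 fold change of -0.85. Beyond 2-fold 8 of them fell, against 3.11% of all genes. The count that rose was 2 without untreated E47KO replicate 1 or WT replicate 1 or 2. Srebf1, the transcription factor that insulin uses to switch on lipogenesis, was at 31.4 and 26.5 CPM (WT) and 17.1, 26.8 and 27.0 CPM (E47KO) on Dex against 118 to 553.3 CPM with a median of 222 (-3.44 ± 0.34, adjusted p = 6.38e-07). Fasn, fatty acid synthase, was at 94.8 and 86.7 CPM (WT) and 54.3, 67.0 and 63.5 CPM (E47KO) on Dex against 169 to 1444 CPM with a median of 584 (-3.01 ± 0.49, adjusted p = 8.56e-05). Scd1, the stearoyl-CoA desaturase, was at 968 and 1629 CPM (WT) and 619, 1264 and 1114 CPM (E47KO) on Dex against 1551 to 11710.0 CPM with a median of 9079 (-2.81 ± 0.48, adjusted p = 0.000135), and 1 untreated WT liver lay inside the Dex range. Thrsp, a lipogenic regulator, showed the steepest drop of the group (-4.08 ± 0.51, adjusted p = 6.96e-06), and it was at 11.6 to 74.3 CPM on Dex against 268 to 1488 CPM with a median of 552.8. Elovl6, a fatty acid elongase, fell by 3.72 on the log2 scale and Acaca, acetyl-CoA carboxylase, by 2.04.

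**Figure D3:**
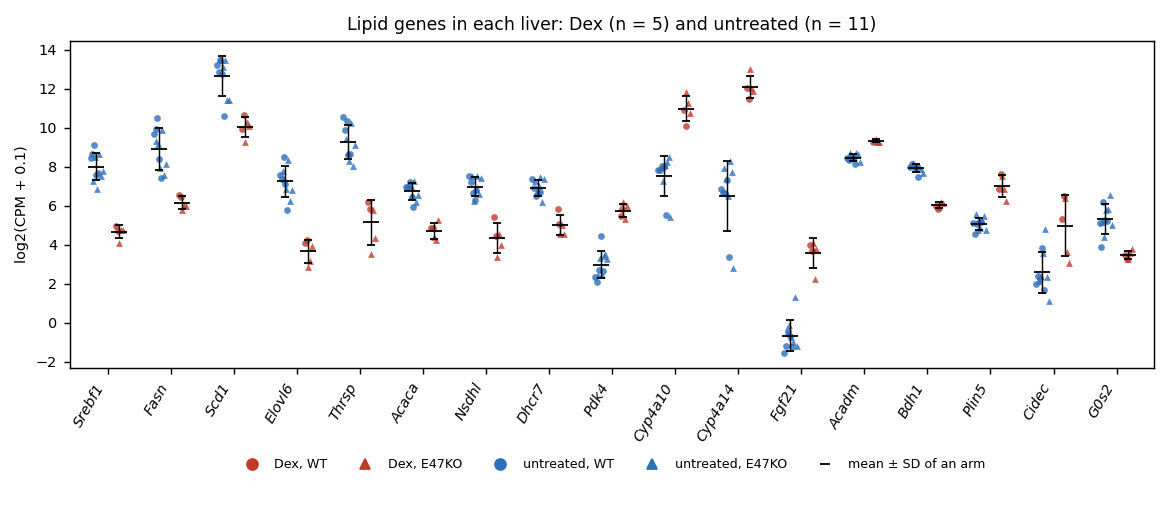
Expression on a log2(CPM + 0.1) axis of 17 lipid genes in each of the 16 livers, WT as circles and E47KO as triangles, with the mean and SD of each arm. Lipogenic and cholesterol genes lie lower on Dex, whereas Pdk4, Cyp4a10, Cyp4a14, Fgf21, Acadm and Plin5 lie higher.

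Of 24 genes of cholesterol synthesis and uptake, 18 fell and none rose, against 24.6% of all genes lower, with a median of -0.91. Nsdhl and Dhcr7, both late enzymes of the pathway, changed most clearly. Nsdhl was at 43.4 and 21.8 CPM (WT) and 10.2, 23.4 and 15.7 CPM (E47KO) on Dex against 76.3 to 188 CPM with a median of 117 (-2.56 ± 0.33, adjusted p = 8.87e-06), and Dhcr7 at 56.5 and 33.6 CPM (WT) and 23.2, 32.3 and 23.4 CPM (E47KO) on Dex against 73.6 to 177 CPM with a median of 122 (-1.92 ± 0.25, adjusted p = 9.88e-06). The first WT liver on Dex was the highest treated liver for 23 of the 24 genes and the first E47KO liver the lowest for 17. Fits without each of these livers were run, but the counts of this list in them are not given here. Sqle, squalene epoxidase, was at 118 and 83.1 CPM (WT) and 25.9, 58.4 and 43.1 CPM (E47KO) on Dex against 64.7 to 152 CPM with a median of 111.4 (-0.77 ± 0.30, adjusted p = 0.0389), and its call was lost without any 1 of the 3 E47KO Dex livers or 6 of the untreated ones. Hmgcs1, the entry enzyme, was at 100.1 to 356 CPM on Dex and 143 to 573 CPM with a median of 349.7 without it (-0.80 ± 0.37, adjusted p = 0.0790, called without the first WT liver on Dex or untreated WT replicate 5). In the separate fits of the 2 genotypes, 4 of the 24 genes fell in WT livers, where 9.56% of all genes were lower, and 20 in E47KO livers, where 17.5% were lower, whereas a genotype difference of the Dex effect was called for none of them.

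Fat burning genes were higher more often than lower. Of 24 targets of the nuclear receptor PPARα, fatty acid oxidation and ketone genes, 13 rose and 4 fell, with a median of 0.30. Among all genes 24.9% were higher and 24.6% lower. Cyp4a14, a fatty acid ω-hydroxylase and a sensitive PPARα target, was at 4163 and 2862 CPM (WT) and 8325, 4223 and 3773 CPM (E47KO) on Dex against 6.82 to 321 CPM with a median of 116 (5.06 ± 0.57, adjusted p = 2.44e-06). Cyp4a10 was at 1940.2 and 1083 CPM (WT) and 3652, 2439 and 1758 CPM (E47KO) on Dex against 43.5 to 368 CPM with a median of 253 (3.25 ± 0.39, adjusted p = 4.26e-06). For both, 1 untreated WT and 1 untreated E47KO liver were far below the other untreated ones, and the 2 genes are close relatives. Pdk4, which blocks pyruvate entry into the citric acid cycle, was at 44.2 and 56.7 CPM (WT) and 73.3, 40.4 and 62.5 CPM (E47KO) on Dex against 4.17 to 21.9 CPM with a median of 6.56 (2.65 ± 0.30, adjusted p = 2.95e-06). Fgf21, a fasting hormone of the liver, was at 15.8 and 12.9 CPM (WT) and 17.2, 4.62 and 13.9 CPM (E47KO) on Dex against 0.237 to 2.44 CPM with a median of 0.5001 (4.34 ± 0.40, adjusted p = 2.83e-07).

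Acadm, medium-chain acyl-CoA dehydrogenase, was at 619 to 702 CPM on Dex and 282 to 420.1 CPM with a median of 354 without it (0.86 ± 0.09, adjusted p = 1.15e-06). Cpt1a, the gate of fatty acids into mitochondria, was at 422 to 543.6 CPM against 384 to 715 CPM with a median of 566 and was not called (-0.23 ± 0.13, adjusted p = 0.158). Bdh1, which makes the ketone β-hydroxybutyrate, fell. It was at 177 to 288.8 CPM with a median of 255 in untreated livers and at 63.1 and 57.4 CPM (WT) and 62.3, 73.9 and 70.9 CPM (E47KO) on Dex (-1.92 ± 0.12, adjusted p = 4.53e-09), and the 2 arms did not overlap.

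Lipid droplet genes split. Of 13 tested, 3 rose and 5 fell, and 3 fell without the first E47KO or without the second WT liver on Dex. The 5 that fell each overlap another annotated gene. Plin5, which tethers droplets to mitochondria, was at 117 and 199.8 CPM (WT) and 185, 114 and 75.7 CPM (E47KO) on Dex against 23.2 to 48.3 CPM with a median of 34.6 (2.01 ± 0.19, adjusted p = 4.03e-07). Cidec, which fuses droplets, was at 39.9 and 89.4 CPM (WT) and 83.6, 12.3 and 8.20 CPM (E47KO) on Dex against 2.04 to 27.5 CPM with a median of 5.02 (2.57 ± 0.58, adjusted p = 0.00162), and 2 of the 3 E47KO livers lay within the untreated range. G0s2, an inhibitor of the triglyceride lipase, was at 11.02 and 9.47 CPM (WT) and 9.58, 11.8 and 13.7 CPM (E47KO) on Dex against 14.9 to 95.7 CPM with a median of 37.7 (-2.03 ± 0.36, adjusted p = 0.000190). Pparg, a nuclear receptor of fat storage, fell too (-1.32 ± 0.23, adjusted p = 0.000203). Plin2, the coat of most droplets in hepatocytes, was at 269 to 447 CPM against 188 to 692 CPM with a median of 382.2 (-0.13 ± 0.24, adjusted p = 0.688), and the fatty acid transporter Cd36 at 42.0 to 119.8 CPM against 18.2 to 119 CPM with a median of 47.2 (0.40 ± 0.36, adjusted p = 0.360).

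Among 19 apolipoprotein and lipoprotein genes, 5 rose and 4 fell, near the shares of all genes, 24.9% and 24.6%. Apoa4, an apolipoprotein that the liver makes when it is loaded with fat, stood out at 1984 and 3949.8 CPM (WT) and 1604, 793 and 1653 CPM (E47KO) on Dex against 24.3 to 161 CPM with a median of 60.7 in untreated livers (4.59 ± 0.38, adjusted p = 7.22e-08). Apob, the backbone of very-low-density lipoprotein, was at 7326 to 10235 CPM against 3759 to 7045 CPM with a median of 5619.6 (0.61 ± 0.14, adjusted p = 0.00213), and Mttp, which loads lipid onto it, at 343 to 555 CPM against 259 to 366 CPM with a median of 302 (0.59 ± 0.12, adjusted p = 0.000534). Pltp, the phospholipid transfer protein, fell (-1.94 ± 0.44, adjusted p = 0.00150).

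Of 20 bile acid genes, 9 fell and 1 rose (median -0.33), and 5 fell against the low-numbered untreated livers alone, where 22.9% of all genes were lower and 25.4% higher, together 48.3%. Cyp7a1, the rate-limiting enzyme of bile acid synthesis, was at 107 and 116 CPM (WT) and 176, 141 and 84.2 CPM (E47KO) on Dex against 71.6 to 560.3 CPM with a median of 258 (-1.07 ± 0.40, adjusted p = 0.0355). Its call was lost without any Dex liver but the first E47KO one, and without untreated WT replicate 4 or E47KO replicate 3 or 4. Cyp7b1, of the alternative pathway, was at 211 and 174 CPM (WT) and 141, 182.4 and 173 CPM (E47KO) on Dex against 156 to 786 CPM with a median of 418 (-1.19 ± 0.33, adjusted p = 0.00607). The single member that rose was Abcb4, the phospholipid pump of the bile canaliculus, at 471 and 454 CPM (WT) and 501, 426 and 543.4 CPM (E47KO) on Dex against 219 to 304 CPM with a median of 251 (0.92 ± 0.09, adjusted p = 6.38e-07). Cyp8b1, which sets the share of cholic acid, was at 181.4 to 630.5 CPM against 173 to 883 CPM with a median of 369.9 and was not called (0.01 ± 0.36, adjusted p = 0.988).

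Drug-metabolizing P450 enzymes moved in both directions, with 10 of 22 higher and 7 lower. Beside Cyp2b10, Cyp3a11, the main drug-oxidizing enzyme and a target of the pregnane X receptor that Dex can activate, was at 6596 and 13881 CPM (WT) and 6203, 7939 and 8923 CPM (E47KO) on Dex against 2078 to 5652 CPM with a median of 4106 (1.23 ± 0.23, adjusted p = 0.000284). Alas1, which supplies the haem these enzymes need, fell and was at 239 to 487 CPM on Dex against 591 to 1072 CPM with a median of 837 (-1.26 ± 0.17, adjusted p = 1.19e-05). Cyp2b9 fell as well and was at 0.0449 to 0.1798 CPM on Dex against 0.0274 to 3.47 CPM with a median of 0.759, a ratio of untreated to Dex of 10.96 (95% interval 6.22 to 21.3) (adjusted p = 0.0177). The arms overlapped. The interval covers counting error only and not the spread between livers.

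Amino acid breakdown and the urea cycle did not move one way, with 8 of 26 genes higher and 10 lower. The count of higher members was 5 without any 1 of 3 Dex livers or 4 untreated livers (E47KO replicates 1 and 2 and WT replicate 2 on Dex, WT replicates 3 and 5 and E47KO replicates 3 and 5 untreated). Gldc, of the glycine cleavage system, was at 331 and 329 CPM (WT) and 317, 302 and 359.9 CPM (E47KO) on Dex against 88.8 to 150.4 CPM with a median of 125 (1.49 ± 0.12, adjusted p = 6.45e-08). Otc, the urea cycle's ornithine transcarbamylase, was at 232 and 143 CPM (WT) and 165, 253 and 238 CPM (E47KO) on Dex against 473 to 680.0 CPM with a median of 573 (-1.47 ± 0.14, adjusted p = 4.83e-07). The arms did not overlap in either gene. Oat and Gls2, which degrade ornithine and glutamine, fell (-1.32 ± 0.25, adjusted p = 0.000335, and -0.76 ± 0.18 (SE), adjusted p = 0.00236, respectively), and so did Ass1 of the urea cycle (-0.64 ± 0.18, adjusted p = 0.00888). Sds, serine dehydratase, was at 43.2 to 97.4 CPM against 47.6 to 148 CPM with a median of 86.0 (-0.30 ± 0.23, adjusted p = 0.289).

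Genes of the interferon response were lower almost throughout. Of 22 tested, 21 fell and none rose, against 24.6% of all genes lower, with a median log2 fold change of -1.35. For 12 of them all 5 Dex livers lay below all untreated ones, against 10.6% of all genes. Ifit1, which binds foreign RNA, was at 1.66 and 0.420 CPM (WT) and 0.953, 1.17 and 1.62 CPM (E47KO) on Dex against 5.15 to 12.5 CPM with a median of 7.14 (-2.71 ± 0.29, adjusted p = 1.32e-06). Isg15, a ubiquitin-like modifier, was at 1.32 and 1.26 CPM (WT) and 1.33, 1.88 and 2.10 CPM (E47KO) on Dex against 4.92 to 10.8 CPM with a median of 6.596 (-2.12 ± 0.22, adjusted p = 1.02e-06). Oasl1, of the oligoadenylate synthetase family, was at 2.19 and 1.20 CPM (WT) and 1.33, 1.66 and 2.54 CPM (E47KO) on Dex against 6.56 to 20.98 CPM with a median of 10.6 (-2.66 ± 0.27, adjusted p = 6.88e-07). These are low transcripts, and for the 3 of them every treated liver was below every untreated one. Against the low-numbered untreated livers alone 16 of the 22 fell, and against the high-numbered ones 20, where 27.5% of all genes were lower and 27.6% higher, together 55.1%.

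Promoters of Isg15, Ifit1 and Apol9b are shown because these genes fell and each held the letters of an interferon-stimulated response element, GAAANNGAAA, searched on both strands and here in capitals, with overlapping matches run together. The element is bound by interferon-activated factors. Of the 19 interferon genes with a promoter entry, 10 held it, against 421 of the 11149 tested genes with an entry (3.78%). Coordinates are those of GRCm38.p6, chr4:156200769-156201068 on the minus strand for Isg15, chr19:34640639-34640938 on the plus strand for Ifit1 and chr15:77728822-77729121 on the plus strand for Apol9b, for which a second start is listed close by.
Isg15: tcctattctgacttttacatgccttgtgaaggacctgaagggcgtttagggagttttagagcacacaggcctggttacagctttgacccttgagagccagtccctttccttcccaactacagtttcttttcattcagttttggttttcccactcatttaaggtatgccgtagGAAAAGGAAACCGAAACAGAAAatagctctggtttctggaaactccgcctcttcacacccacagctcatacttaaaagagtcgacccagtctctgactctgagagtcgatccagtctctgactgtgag
Ifit1: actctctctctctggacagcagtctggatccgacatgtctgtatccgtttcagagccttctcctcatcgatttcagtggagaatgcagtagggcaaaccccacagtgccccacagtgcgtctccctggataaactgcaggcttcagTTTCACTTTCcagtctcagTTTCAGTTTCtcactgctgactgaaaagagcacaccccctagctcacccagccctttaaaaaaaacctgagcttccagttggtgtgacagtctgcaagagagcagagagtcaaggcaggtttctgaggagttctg
Apol9b: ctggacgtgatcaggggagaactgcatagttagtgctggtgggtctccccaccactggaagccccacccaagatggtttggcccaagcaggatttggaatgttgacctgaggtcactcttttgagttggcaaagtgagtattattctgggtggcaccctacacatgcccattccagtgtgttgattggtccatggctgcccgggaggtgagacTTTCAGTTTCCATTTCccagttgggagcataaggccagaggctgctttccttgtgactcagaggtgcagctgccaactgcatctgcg

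Acute phase proteins, which the liver secretes in inflammation, did not move together. Of 23 tested, 5 rose and 5 fell, and the number that fell ranged from 3 to 8 as single livers were left out, with 8 without the third E47KO liver on Dex and 3 without any other Dex liver or untreated E47KO replicate 5 or 6. Lbp, which presents bacterial lipopolysaccharide, was at 238 and 313 CPM (WT) and 218, 195 and 257 CPM (E47KO) on Dex against 46.5 to 166 CPM with a median of 64.5 (1.52 ± 0.25, adjusted p = 0.000101). Crp, C-reactive protein, was at 721 and 927 CPM (WT) and 779, 552 and 1062 CPM (E47KO) on Dex against 292.3 to 497 CPM with a median of 409 (1.00 ± 0.14, adjusted p = 1.60e-05). Orm3, an orosomucoid, was at 31.0 and 16.2 CPM (WT) and 22.1, 42.1 and 23.1 CPM (E47KO) on Dex against 0.280 to 9.53 CPM with a median of 2.65 (2.65 ± 0.46, adjusted p = 0.000166).

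The serum amyloids were set by a few livers. Saa1 was at 47.8 and 33.2 CPM (WT) and 31.3, 36.8 and 314 CPM (E47KO) on Dex and at 22.1 to 2647 CPM with a median of 56.0 in untreated livers (-2.90 ± 1.32, adjusted p = 0.0771), and Saa2 at 16.4 and 7.91 CPM (WT) and 4.43, 13.2 and 75.9 CPM (E47KO) on Dex against 7.13 to 1663 CPM with a median of 22.2 (-3.87 ± 1.51, adjusted p = 0.0429). Untreated WT replicate 5 and E47KO replicates 5 and 6 set the upper end of the untreated range. The call for Saa2 was lost without any 1 of these 3, and without any Dex liver but the third E47KO one. Lcn2, lipocalin, was at 97.1 and 368 CPM (WT) and 65.4, 62.7 and 351 CPM (E47KO) on Dex against 1.30 to 386 CPM with a median of 7.63 (1.65 ± 1.05, adjusted p = 0.205), and it was called higher, at 3.32, without untreated WT replicate 5. Orm2 was at 6.01 to 32.6 CPM against 8.88 to 159 CPM with a median of 19.4 (-1.87 ± 0.82, adjusted p = 0.0667).

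**Figure D4:**
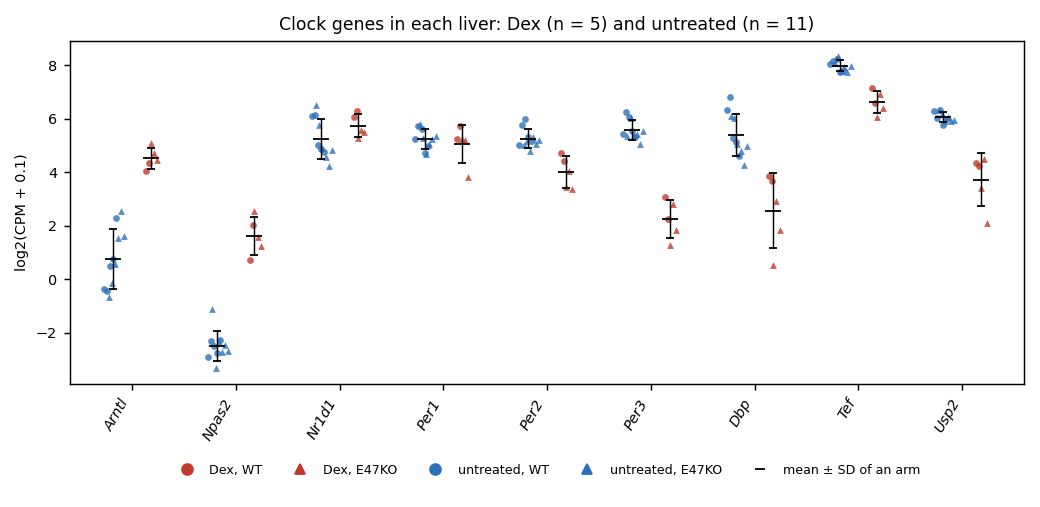
Expression on a log2(CPM + 0.1) axis of 9 clock genes in each of the 16 livers, WT as circles and E47KO as triangles, with the mean and SD of each arm. Arntl and Npas2 lie higher on Dex, Per3, Dbp, Tef and Usp2 lower, and Nr1d1 and Per1 overlap.

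Clock genes moved in both directions. The liver clock is a loop in which Arntl and Clock or Npas2 drive the Per and Cry repressors, the Nr1d receptors and output factors such as Dbp and Tef. Of 19 tested, 7 rose and 10 fell, beside 24.9% and 24.6% of all genes. The activator Arntl was at 16.5 and 20.1 CPM (WT) and 33.8, 26.1 and 22.0 CPM (E47KO) on Dex and at 0.535 to 5.86 CPM with a median of 1.41 in untreated livers (3.43 ± 0.44, adjusted p = 8.67e-06), and Npas2 at 1.56 and 3.96 CPM (WT) and 5.81, 2.92 and 2.27 CPM (E47KO) on Dex against 0 to 0.368 CPM with a median of 0.0778 (5.10 ± 0.42, adjusted p = 7.29e-08). Per3 was at 8.29 and 4.74 CPM (WT) and 2.34, 6.91 and 3.45 CPM (E47KO) on Dex against 33.1 to 76.3 CPM with a median of 43.6 (-3.26 ± 0.27, adjusted p = 7.58e-08), and Per2 at 26.2 and 21.6 CPM (WT) and 10.9, 16.3 and 10.2 CPM (E47KO) on Dex against 27.8 to 64.3 CPM with a median of 36.0 (-1.22 ± 0.18, adjusted p = 2.72e-05). In all 4 genes the arms did not overlap.

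The output factor Dbp was at 14.6 and 12.6 CPM (WT) and 1.33, 7.45 and 3.51 CPM (E47KO) on Dex against 19.1 to 111.4 CPM with a median of 35.1 (-2.73 ± 0.48, adjusted p = 0.000185), and its relative Tef at 141 and 96.9 CPM (WT) and 67.3, 121 and 84.2 CPM (E47KO) on Dex against 215.4 to 323 CPM with a median of 248 (-1.33 ± 0.16, adjusted p = 3.89e-06). Usp2, a deubiquitinase of the clock, was at 20.5 and 18.9 CPM (WT) and 10.6, 22.8 and 4.21 CPM (E47KO) on Dex against 55.2 to 80.9 CPM with a median of 65.9 (-2.15 ± 0.27, adjusted p = 7.02e-06). Nr1d1, the repressor of Arntl, was at 66.8 and 79.2 CPM (WT) and 39.2, 47.8 and 45.0 CPM (E47KO) on Dex against 18.8 to 90.5 CPM with a median of 30.2 and was not called (0.35 ± 0.32, adjusted p = 0.381). Since no hour of sacrifice is given for either arm, the time of day and Dex cannot be told apart for these genes.

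The Tef promoter is shown because Tef was lower in every treated than in any untreated liver and its promoter held an E-box, CACGTG, the element that the Arntl dimers bind. Of the 16 clock genes with a promoter entry 5 held it, against 1251 of the 11149 tested genes (11.2%). The window is chr15:81802423-81802722 (GRCm38.p6, plus strand), the first of 2 listed starts, and the capitals mark the match, which begins at -127.
Tef: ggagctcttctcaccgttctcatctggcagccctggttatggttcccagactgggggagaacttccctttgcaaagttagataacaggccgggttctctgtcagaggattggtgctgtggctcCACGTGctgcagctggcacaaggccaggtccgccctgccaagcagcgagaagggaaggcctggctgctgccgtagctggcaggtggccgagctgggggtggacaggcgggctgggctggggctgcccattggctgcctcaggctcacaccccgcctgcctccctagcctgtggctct

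Immediate early genes, which cells switch on within minutes of a stimulus, were higher almost throughout. Of 18 tested, 17 rose and none fell, against 24.9% of all genes higher, with a median log2 fold change of 2.21. Beyond 2-fold 9 of them rose, against 4.21% of all genes. Jun was at 77.6 and 121 CPM (WT) and 72.3, 52.9 and 75.4 CPM (E47KO) on Dex against 3.99 to 10.9 CPM with a median of 7.36 (3.42 ± 0.21, adjusted p = 4.09e-09), and Fos at 12.4 and 8.15 CPM (WT) and 9.01, 5.56 and 1.997 CPM (E47KO) on Dex against 0.301 to 1.02 CPM with a median of 0.616 (3.58 ± 0.32, adjusted p = 1.76e-07). Jun and Fos form the factor AP-1. Atf3, which stress induces, was at 34.2 and 65.9 CPM (WT) and 25.3, 9.38 and 14.8 CPM (E47KO) on Dex against 0.283 to 2.12 CPM with a median of 0.678 (5.01 ± 0.35, adjusted p = 1.41e-08), and Klf6 at 50.03 and 75.3 CPM (WT) and 46.6, 24.4 and 27.0 CPM (E47KO) on Dex against 5.49 to 8.52 CPM with a median of 6.83 (2.67 ± 0.19, adjusted p = 1.67e-08). Egr1 was at 45.4 and 30.7 CPM (WT) and 28.5, 26.3 and 15.1 CPM (E47KO) on Dex against 1.60 to 25.6 CPM with a median of 2.93 (2.28 ± 0.56, adjusted p = 0.00282), with an untreated liver in the Dex range. The tolerance test that the mice on Dex underwent cannot be told apart from Dex in these values.

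Genes of other stress programmes moved in both directions. Of 16 genes of the integrated and endoplasmic reticulum stress response, 4 rose and 3 fell. These counts are near or below the shares of all genes, 24.9% higher and 24.6% lower. Atf5, a mitochondrial stress factor, was at 236 and 327 CPM (WT) and 438, 279 and 425 CPM (E47KO) on Dex against 68.1 to 147 CPM with a median of 100.1 (1.69 ± 0.20, adjusted p = 3.85e-06), and Ppp1r15a, which ends the translational arrest, was higher too (1.09 ± 0.15, adjusted p = 1.96e-05). Xbp1, a factor of the unfolded protein response, was lower (-0.76 ± 0.14, adjusted p = 0.000217). Asns, asparagine synthetase, was at 3.56 to 19.8 CPM against 2.402 to 46.8 CPM with a median of 12.2 (-0.61 ± 0.56, adjusted p = 0.385), and the chaperone Hspa5 at 410.4 to 786 CPM against 456 to 906 CPM with a median of 615 (-0.19 ± 0.17, adjusted p = 0.367). Of 11 heat shock chaperones, 2 rose and 1 fell, with 4 that rose without the second E47KO liver on Dex and 1 without the third E47KO or the second WT liver on Dex or untreated E47KO replicate 2, 5 or 6.

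Of 13 genes of NRF2-type detoxification, 2 rose and 5 fell, or 3 without the second WT liver on Dex, and 1 rose without the first. Nqo1, a quinone reductase, was at 2.78 and 2.04 CPM (WT) and 3.86, 3.77 and 3.78 CPM (E47KO) on Dex against 4.53 to 8.86 CPM with a median of 7.59 (-1.19 ± 0.17, adjusted p = 3.54e-05). Hmox1, haem oxygenase, went up, at 34.8 and 24.9 CPM (WT) and 57.6, 45.3 and 41.3 CPM (E47KO) on Dex against 8.54 to 17.5 CPM with a median of 14.3 (1.53 ± 0.16, adjusted p = 1.04e-06). Of 12 autophagy and FoxO target genes, 5 rose and 1 fell. Bcl2l11, the cell death activator Bim, was at 19.9 and 42.3 CPM (WT) and 32.7, 20.6 and 20.1 CPM (E47KO) on Dex against 5.17 to 10.8 CPM with a median of 7.89 (1.83 ± 0.19, adjusted p = 9.60e-07). Gabarapl1 and Sqstm1, which act in the autophagosome, rose (1.17 ± 0.15, adjusted p = 9.47e-06, and 0.96 ± 0.12 (SE), adjusted p = 5.63e-06, respectively). The member that fell was Klf15, a fasting factor that GR controls (-0.56 ± 0.21, adjusted p = 0.0325), and its call was lost without any Dex liver but the second E47KO one.

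Proliferation genes were lower. Of 15 tested, 9 fell and none rose, against 24.6% of all genes lower, with a median of -1.39. Ccnd1, the cyclin of the G1 phase, was at 4.05 and 1.08 CPM (WT) and 2.48, 5.25 and 2.64 CPM (E47KO) on Dex against 7.92 to 39.5 CPM with a median of 15.3 (-2.47 ± 0.42, adjusted p = 0.000130). Cdk1 and Birc5, both of mitosis, were below 1 CPM in all 5 treated livers, with Cdk1 at 0.238 to 0.536 CPM against 0.821 to 2.48 CPM with a median of 1.75 (-2.06 ± 0.26, adjusted p = 7.59e-06) and Birc5 at 0.1798 to 0.628 CPM against 0.738 to 2.92 CPM with a median of 1.18 (-1.94 ± 0.37, adjusted p = 0.000381). Against the low-numbered untreated livers alone 4 of the 13 tested there fell, where 22.9% of all genes were lower. Against the high-numbered ones alone 11 of 15 fell, where 27.5% were lower.

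Among the E proteins, to which E47 belongs, and their Id inhibitors, 4 of 7 rose and none fell, against 24.9% of all genes higher. Id1 was at 16.9 and 12.9 CPM (WT) and 14.8, 18.1 and 19.2 CPM (E47KO) on Dex against 1.61 to 7.20 CPM with a median of 3.55 (2.10 ± 0.28, adjusted p = 1.23e-05). Id2 was at 114 and 96.7 CPM (WT) and 118, 134 and 270.0 CPM (E47KO) on Dex against 28.6 to 136 CPM with a median of 96.5 and was not called (0.72 ± 0.31, adjusted p = 0.0622), though it was called by 7 of the alternative analyses, 2 of which left out untreated WT replicate 3 or E47KO replicate 5. Tcf3, the gene of E47, was not called either (0.11 ± 0.11, adjusted p = 0.427).

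Growth hormone acts on the liver through the factor STAT5 and sets sex-biased expression by the pattern of its release. Of 12 genes of this axis, 3 rose and 4 fell. Ghr, the growth hormone receptor, was at 286 and 186 CPM (WT) and 185, 370.0 and 364 CPM (E47KO) on Dex against 559.8 to 766 CPM with a median of 673 (-1.28 ± 0.16, adjusted p = 8.22e-06). Igf1, the hormone it induces, was at 419.9 and 410.1 CPM (WT) and 479.8, 481 and 498 CPM (E47KO) on Dex against 537 to 897 CPM with a median of 697 (-0.63 ± 0.11, adjusted p = 0.000221), and Igfals, which carries IGF in plasma, at 45.0 to 65.7 CPM against 89.2 to 145 CPM with a median of 121 (-1.12 ± 0.12, adjusted p = 1.06e-06). These 3 were lower in every treated than in any untreated liver. Stat5b rose (0.90 ± 0.10, adjusted p = 2.13e-06), and so did the feedback inhibitor Socs2 (0.95 ± 0.32, adjusted p = 0.0202), whose call was lost without the first E47KO or the second WT liver on Dex. Bcl6, a repressor of this axis, was at 14.8 to 36.0 CPM against 8.88 to 83.9 CPM with a median of 17.1 (-0.10 ± 0.52, adjusted p = 0.883).

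Genes known as sex-biased in liver moved in both directions in these male livers. Of 12 male-biased genes, 7 fell and 2 rose. Of 15 female-biased genes 11 passed the filter, of which 6 rose and 2 fell (1 without the second or the third E47KO liver on Dex), and members that passed only because they were high on Dex add to the count that rose. Hsd3b5, a male-specific steroid enzyme, was at 20.1 and 13.5 CPM (WT) and 2.86, 10.9 and 22.0 CPM (E47KO) on Dex against 110.2 to 327 CPM with a median of 254 (-4.13 ± 0.38, adjusted p = 2.57e-07). Cyp17a1, a steroid hydroxylase, was at 494 and 712 CPM (WT) and 484, 309 and 348 CPM (E47KO) on Dex against 5.34 to 71.6 CPM with a median of 14.9 (4.58 ± 0.45, adjusted p = 4.66e-07). The male-biased Elovl3 was higher, at 249.6 and 194 CPM (WT) and 359.6, 295.1 and 169 CPM (E47KO) on Dex against 25.5 to 127 CPM with a median of 55.2 (1.98 ± 0.30, adjusted p = 4.80e-05), and so was Mup20, the pheromone darcin (1.64 ± 0.23, adjusted p = 1.87e-05). Cyp4a12a fell (-0.87 ± 0.17, adjusted p = 0.000416). Of the 21 major urinary proteins, carriers of pheromones whose near-identical copies share reads, 16 were lower and 3 higher, and these single values are uncertain.

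Lymphocyte markers were lower on Dex, while those of other cells were mixed. In bulk tissue, fewer cells of a type and less RNA per cell cannot be told apart. Of 9 tested B cell markers 7 fell and none rose, against 24.6% of all genes lower. The summed level of the B cell markers was 1.12 to 8.39 CPM on Dex and 3.74 to 37.0 CPM without it. Fcmr, Ms4a1 and Pax5 were at 0 in all 5 treated livers, where 3 reads in each would give a mean of 0.152 CPM. Cd79b, part of the B cell receptor, was at 0 to 0.0477 CPM against 0.0814 to 1.12 CPM with a median of 0.301, a ratio of untreated to Dex of 20.7 (95% interval 5.65 to 173) (adjusted p = 0.000184). E47KO mice are known to lack mature B cells, and both arms held both genotypes. Of 12 T and NK cell markers 9 fell and none rose, with sums of 1.32 to 2.83 against 5.003 to 9.50 CPM. Trac, the constant part of the T cell receptor, was at 0 to 0.0488 CPM against 0.137 to 0.435 CPM with a median of 0.255, a ratio of 26.8 (95% interval 4.71 to 1069) (adjusted p = 1.33e-05). The intervals of Cd79b and Trac cover counting error only. Of the 11 B cell and 14 T and NK cell markers listed, 5 and 6 had at most 3 reads in every Dex library. Such markers could pass the filter only through the untreated livers, which adds to the counts that fell. When only genes with at least 1 CPM in 5 libraries were tested, 2 of each list fell.

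Of 11 antigen-presenting cell markers 6 fell and none rose, against 24.6% of all genes lower. Among the treated livers the second WT one was the lowest for 9 of the 11 and the third E47KO one the highest for 7. Fits without each of these livers were run, but the counts of this list in them are not given here. Cd74, the chaperone of class II molecules, was at 7.85 and 2.52 CPM (WT) and 15.8, 17.5 and 31.8 CPM (E47KO) on Dex against 22.5 to 46.9 CPM with a median of 36.6 (-1.46 ± 0.33, adjusted p = 0.00146). Of 13 macrophage and Kupffer cell markers 4 fell and 1 rose, or 1 without any Dex liver but the second E47KO one or without untreated E47KO replicate 5, and 2 without untreated WT replicate 1 or E47KO replicate 4. The Kupffer cell lectin Clec4f was at 28.1 to 46.8 CPM against 35.3 to 82.3 CPM with a median of 49.9 (-0.47 ± 0.18, adjusted p = 0.0359), with its call lost in 13 of the alternatives, and Vsig4 at 7.55 to 13.4 CPM against 8.99 to 23.3 CPM with a median of 16.9 (-0.38 ± 0.20, adjusted p = 0.130). The scavenger receptor Marco was the marker that rose, at 29.6 and 40.0 CPM (WT) and 19.2, 29.0 and 20.1 CPM (E47KO) on Dex against 2.02 to 20.2 CPM with a median of 3.65 (2.41 ± 0.37, adjusted p = 5.66e-05). Of 11 endothelial markers 2 rose, or 4 without the third E47KO liver on Dex, and 1 without either of the other E47KO livers on Dex, the first WT one or untreated WT replicate 2 or 4 or E47KO replicate 2, 3, 5 or 6. Lyve1, of sinusoidal endothelium, was at 44.4 and 23.2 CPM (WT) and 35.9, 35.6 and 5.94 CPM (E47KO) on Dex against 2.41 to 8.04 CPM with a median of 5.57 (2.44 ± 0.33, adjusted p = 1.46e-05).

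Of 6 tested neutrophil markers 4 rose and none fell (2 without the first E47KO liver on Dex), with a summed level of 1.94 to 9.06 CPM on Dex and 1.76 to 6.24 CPM without it. Markers that passed the filter only because they were high on Dex would add to the count that rose. Of 12 stellate cell and fibroblast markers 2 rose (1 without the first WT liver on Dex) and 3 fell, and collagen Col3a1 was at 1.74 to 11.1 CPM against 11.7 to 23.7 CPM with a median of 18.3 (-1.66 ± 0.29, adjusted p = 0.000182). Of 6 cholangiocyte markers 1 rose and 1 fell (3 without the first WT liver on Dex, 2 without untreated WT replicate 3), and the one that rose, Sox9, was at 5.27 to 8.80 CPM against 1.05 to 3.62 CPM with a median of 2.02 (1.68 ± 0.24, adjusted p = 2.47e-05). Of 10 hepatocyte markers 6 rose and 1 fell, and 3 rose without the first E47KO or without either WT liver on Dex. Of 11 pericentral hepatocyte genes 2 rose (1 without the first or second E47KO liver on Dex) and 6 fell. Of 10 periportal ones 3 rose (1 without the third E47KO or second WT liver on Dex, untreated WT replicate 4 or 5 or E47KO replicate 3, 5 or 6) and 4 fell. Rgn, a pericentral calcium-binding protein, was at 291 and 150.0 CPM (WT) and 237, 354 and 369.8 CPM (E47KO) on Dex against 1081 to 1701 CPM with a median of 1381 (-2.30 ± 0.20, adjusted p = 1.02e-07), while Glul, glutamine synthetase of the cells around the central vein, was at 991 to 1349 CPM against 522 to 1200.4 CPM with a median of 1082 (0.26 ± 0.14, adjusted p = 0.134).

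Markers of other tissues were few. Of 6 erythroid markers 2 rose and 1 fell, of 5 adipocyte markers 1 rose and 1 fell, and the 1 exocrine pancreas marker that passed the filter fell. Markers that passed only because they were high in 1 arm would tilt these counts. The erythroid count that rose ranged from 0, without the second E47KO liver on Dex, to 4, without the second WT one, and the adipocyte marker that fell was not called without any Dex liver but the first WT one.

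Skeletal muscle markers depended on the untreated livers. None of the 8 was called over all livers, and their sums were 8.80 to 25.0 CPM on Dex, 1.003 to 1.71 CPM in the low-numbered untreated livers and 20.5 to 424 CPM in the high-numbered ones. Against the first set alone 7 rose and against the second all 8 fell. The counts for ribosomal protein genes moved with the untreated livers too. Of 81 tested 15 fell and 3 rose. Against the low-numbered untreated livers alone 62 of the 79 tested there fell, and against the others 14 fell and 12 rose. Without the second E47KO liver on Dex 9 fell, without the first WT liver 8, and without untreated WT replicate 2, 5 rose. Of the replication-type histone genes, 11 of 72 passed the filter, of which 7 rose (4 without the first E47KO liver on Dex). Histone genes that passed only because they were high on Dex would add to the count that rose. Of 9 mitochondrial genes 3 rose and 2 fell (none without the first WT liver on Dex, 1 without the second WT or first E47KO liver or untreated WT replicate 2). The 3 that rose, mt-Co2, mt-Atp6 and mt-Co3, had low counts and have copies in the nuclear genome.

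The Dex difference was then fitted in each genotype alone, on livers that the 2 fits do not share. With 2 WT livers on Dex and 5 untreated, 1533 of 14416 genes (10.6%) were higher and 1378 (9.56%) lower, 20.2% in all. With 3 E47KO livers on Dex and 6 untreated, 2590 of 14449 (17.9%) were higher and 2525 (17.5%) lower, 35.4% in all. Of the 14119 genes tested in both, 2468 were called in both and all of these in the same direction. This was 87.0% of the WT calls and 49.0% of the E47KO calls. Across those genes the log2 fold changes had a Pearson correlation of 0.89 and a Spearman correlation of 0.87, a description in which genes are not independent and library type coincides with Dex in both genotypes. Without its second Dex liver the WT comparison gave 472 higher and 260 lower genes, and without its first 817 and 633. Without the first E47KO liver on Dex, 1714 genes were higher and 1505 lower in E47KO livers.

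A difference of the Dex effect between the genotypes was called for 2 of 15362 genes (0.013%), and the unadjusted p was below 0.05 for 492 (3.20%). Cd14, the co-receptor for lipopolysaccharide, was at 13.9 and 8.45 CPM (WT) and 1.95, 1.21 and 2.05 CPM (E47KO) on Dex against 0.752 to 1.53 CPM with a median of 1.11, with a difference of the log2 fold change, E47KO minus WT, of -2.74 ± 0.39 (SE), adjusted p = 0.0203. The 2 WT livers on Dex thus lay above the 3 E47KO ones. In E47KO livers its Dex difference was not called (0.63, adjusted p = 0.0593). Its call was lost without any 1 of the 3 E47KO livers on Dex, without the first WT liver on Dex or without any 1 of 5 untreated livers (WT replicates 2 and 4, E47KO replicates 3, 5 and 6).

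Of the genes next in order for this difference, 3 are given here and did not pass the threshold. Rgs2, a brake on G protein signalling, was at 4.49 and 53.3 CPM (WT) and 3.77, 4.13 and 1.78 CPM (E47KO) on Dex (-3.32 ± 0.77, adjusted p = 0.9999 for the difference), and 1 WT liver set its level. Gramd1b, a sterol carrier, was at 10.9 and 44.7 CPM (WT) and 5.10, 6.33 and 4.80 CPM (E47KO) on Dex (-2.43 ± 0.46, adjusted p = 0.372), and Klf6, given above, had a difference of -1.21 ± 0.28 (SE), adjusted p = 0.9999. Without the first WT liver on Dex 10 genes were called, and without any 1 of the E47KO livers on Dex none.

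Dex and Cort livers were compared directly in a joint fit of 24 livers, in which both steroids had been given in the water for 3 weeks and both arms were killed after a tolerance test. Of 15976 genes tested, 3204 (20.1%) were higher and 3582 (22.4%) lower on Dex than on Cort, 42.5% in all. The Cort livers differed from the same untreated livers in 52.5% of the genes, with 26.2% higher and 26.3% lower. In 15 of the 16 leading genes Dex and Cort differed, and the exception was Chrna4. Those genes were chosen for their extreme values in the same Dex livers, which favours such a call. The Cort libraries held 37814570 to 54560884 reads assigned to genes. Their 2 strand columns were nearly equal (50.1% in the larger) although they are labelled stranded, whereas the untreated libraries had 96.9 to 97.5% in the larger. Depth, gene list and the library label differed between the 2 steroid arms and cannot be told apart from the steroid.

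**Figure D5:**
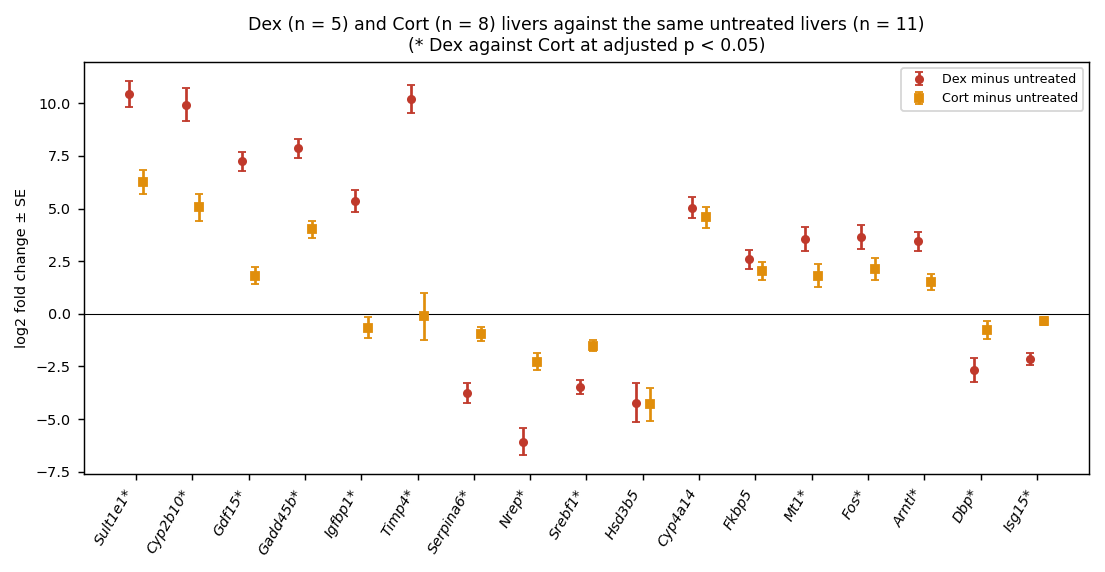
Log2 fold change ± SE of 17 genes in Dex (circles, n = 5) and Cort livers (squares, n = 8) against the same 11 untreated livers, from 1 fit, with an asterisk where Dex and Cort differed at an adjusted p below 0.05. Gdf15, Timp4 and Igfbp1 stand far apart, whereas Fkbp5, Cyp4a14 and Hsd3b5 are close. The 2 sets of fold changes share their untreated livers.

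Sult1e1 and Cyp2b10 had levels on Cort between those of the other arms. Sult1e1 was at 3.36 to 92.4 CPM on Cort (median 20.7), and the difference, Dex minus Cort, was 4.18 ± 0.55 (SE), adjusted p = 2.43e-06. Cyp2b10 was at 9.43 to 145 CPM on Cort (4.89 ± 0.72, adjusted p = 1.07e-05). Igfbp1 and Timp4, in contrast, were not called for Cort against untreated livers, with log2 fold changes of -0.65 (adjusted p = 0.262) and -0.12 (adjusted p = 0.939). Igfbp1 was at 7.34 to 39.7 CPM on Cort, a Dex minus Cort difference of 6.01 ± 0.63 (SE), adjusted p = 1.32e-07, and Timp4 differed by 10.31 ± 0.74 (SE), adjusted p = 5.01e-10. Gdf15 differed by 5.43 ± 0.48 (SE), adjusted p = 1.06e-08.

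The 5 genes with the smallest p for Dex against Cort among those called in both comparisons all rose on Dex. Ptp4a1, a protein tyrosine phosphatase, was at 324 and 301 CPM (WT) and 277, 258 and 271 CPM (E47KO) on Dex, at 40.8 to 80.3 CPM on Cort and at 43.6 to 68.4 CPM with a median of 59.1 untreated (2.35 ± 0.12, adjusted p = 4.62e-12). For Ptp4a1 the Cort livers overlapped the untreated ones and lay below all Dex livers. Others of these genes were Tmem243 (1.06 ± 0.06, adjusted p = 1.35e-11), Reps1 (1.58 ± 0.09, adjusted p = 1.38e-11) and the zinc finger gene Zbtb10 (2.60 ± 0.15, adjusted p = 1.38e-11).

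Counts for the gene lists came from the same fit, in which 20.1% of all genes were higher and 22.4% lower on Dex than on Cort. Of the 17 GR targets, 9 were higher on Dex than on Cort and none lower, with Sgk1 at 1.48 ± 0.17 (SE), adjusted p = 3.41e-07, Mt1 at 1.77 ± 0.62 (SE), adjusted p = 0.0254 and Tat at 0.99 ± 0.35 (SE), adjusted p = 0.0246, whereas Fkbp5 was not called (0.56 ± 0.51, adjusted p = 0.393). Of the 18 immediate early genes 16 were higher on Dex and none lower. Serpina6 was lower on Dex than on Cort (-2.80 ± 0.46, adjusted p = 3.28e-05). Of the 22 interferon genes 14 were lower on Dex and none higher, and of the 15 cell cycle genes 10 were lower and none higher.

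Lipogenic genes were lower on Dex than on Cort in part. Of the 20 genes of fatty acid and triglyceride synthesis 8 were lower and 4 higher, with Srebf1 at -1.96 ± 0.32 (SE), adjusted p = 3.81e-05, Fasn at -1.51 ± 0.41 (SE), adjusted p = 0.00506 and Scd1 at -2.27 ± 0.45 (SE), adjusted p = 0.000269. Of the 24 cholesterol genes 1 was lower and 1 higher, and against the shared untreated livers 21 fell on Cort. For Cyp4a14 the difference was 0.47 ± 0.54 (SE), adjusted p = 0.510 and for Fgf21 0.27 ± 0.47 (SE), adjusted p = 0.665, neither called. Male-biased genes were higher on Dex than on Cort in 7 of 12 cases and lower in none, with Elovl3 at 3.69 ± 0.43 (SE), adjusted p = 5.19e-07, and major urinary proteins higher in 16 of 21 and lower in none. Over all genes 20.1% were higher and 22.4% lower. Against the untreated livers 11 of the 12 and 20 of the 21 fell on Cort, beside 7 and 16 on Dex. Kupffer cell and macrophage markers were higher on Dex than on Cort in 12 of 13 cases, with Vsig4 at 1.32 ± 0.31 (SE), adjusted p = 0.00141. Against the untreated livers 11 of these 13 fell on Cort and none rose, whereas on Dex 4 fell and 1 rose. Among clock genes 6 of 19 were higher and 9 lower, with Arntl at 1.93 ± 0.47 (SE), adjusted p = 0.00213 and Per3 at -2.85 ± 0.30 (SE), adjusted p = 1.33e-07.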

How the data were processed

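The authors deposited raw gene counts for each library, and per the labels the RNA was polyA RNA, prepared with a stranded or an unstranded kit. Per the study's methods the authors aligned to mm10 and counted per gene with STAR 2.4.2a, and used DESeq2 for normalization and testing. The submitters' processing notes also name HTSeq, and the Dex count tables close with HTSeq-type summary lines, so the counter of those tables is not certain. The deposited counts without regard to strand were taken for all livers. Genes were matched by Ensembl identifier, and the lines of each file that name no gene stayed out of library sizes. Groups came from the labels.

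Counts were scaled by the trimmed mean of M values, genes passed edgeR's filterByExpr, and edgeR's quasi-likelihood test (edgeR 4.0.16, limma 3.58.1, R 4.3.3) was fitted over all genes with terms for genotype and treatment. The Benjamini-Hochberg adjusted p had to be below 0.05, and a second test required a fold change beyond 2. Separate fits held the WT livers, the E47KO livers, the genotype by treatment interaction, and all 24 livers for Dex against Cort. The scripts were tested on simulated data. Alternatives were DESeq2 1.42.0, other scalings, filters, gene sets and untreated livers, offsets for GC content and length, a replicate block, and leaving out each library.

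The comparison and the gene lists were chosen with earlier results of these data known. Named genes were the 8 largest and the 8 smallest fold changes (protein coding, at least 5 CPM in 1 arm, past the 2-fold test, arms not overlapping), the core members of each list with up to 3 further members by adjusted p, markers at 0, and 5 genes each by p for the interaction and for Dex against Cort. Some genes that this rule names are not reported here. Replicate numbers were not used to pair the arms, since no pairing is stated. The deviations of same-numbered livers correlated at -0.06 to 0.06, but with so few Dex livers this cannot exclude a pairing. Counts of any 2 replicates of a group differed beyond sampling noise. Sequences and promoter positions are from RefSeq (GRCm38.p6). Of the 39 libraries, those of other tissues and of the acute injection were not analysed here.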

Additional observations from a re-analysis of the deposited data

Results flagged for a closer look

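Of 302 groups of 5 or 6 untreated livers of 1 genotype examined, 25 held 1 library far from the others by Dixon's criterion, where chance alone would give about 1 in 20. Each value below is in CPM, beside the range of the other livers of its group.

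In WT replicate 5, Bdh1 was 177 (255.5 to 287.7), Cyp4a10 46.8 (225 to 266), Cyp4a14 10.3 (99.6 to 160), Mt2 85.2 (2.27 to 3.64), Orm2 159 (10.3 to 22), Scd1 1551 (7015 to 11502) and Srd5a1 89.2 (121 to 136). In WT replicate 1, Birc5 was 2.92 (1.06 to 1.43), Id2 34.7 (84.2 to 115), Tat 2599 (1303 to 1566) and Shisa8 0 (0.0495 to 0.0684). Plin5 was 23.2 (33.5 to 36) in WT replicate 2. In WT replicate 4, Pdk4 was 21.9 (4.17 to 6.56) and Pnmt 0.0248, which is 1 read, with 0 in the others.

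In E47KO replicate 1, Nr3c1 was 54.1 (92.6 to 116) and Trib3 19.4 (3.5 to 6.38). In E47KO replicate 2, Gls2 was 817 (336 to 428) and Glul 522 (1003 to 1198). Lyve1 was 2.41 (5.55 to 8.04) in E47KO replicate 3. In E47KO replicate 4, Mt1 was 10.2 (53.6 to 117) and Zbtb16 41.5 (13 to 17). Srd5a1 was 74.3 (104 to 123) in E47KO replicate 5. In E47KO replicate 6, Cdk1 was 0.821 (1.47 to 2.04), Cyp4a14 6.82 (92.3 to 321) and Sult1e1 1.1 (0.084 to 0.234).

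For Cd14 the effect of Dex differed between the genotypes by the interaction term of edgeR's quasi-likelihood test, with a log2 difference, E47KO minus WT, of -2.74. The WT arm on Dex holds 2 livers.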

How the results depend on the processing

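Of the 151 genes named with tests, 126 kept their direction and their side of the threshold for Dex against untreated under all alternatives run. The sign turned for 2 genes, neither called over all livers, against the low-numbered untreated livers alone, with a log2 fold change of -0.85 for Cyp8b1 and 0.49 for Nr3c1. Among genes that overlap no other gene, which are fewer, 1715 were higher and 1711 lower. The share of genes higher beyond 2-fold was 4.21% over all genes, 3.16% where at least 1 CPM in 5 libraries was required (265 genes fewer), 6.91% with the strand column of the untreated libraries (1062 genes) and 3.16% among protein-coding genes (424). Among genes without overlap 4.55% (310) were higher and 3.67% (250) lower beyond 2-fold. DESeq2 called the interaction for 4 genes. With single livers left out, 3279 to 3836 genes were higher and 3288 to 3842 lower, and 3.46 to 4.28% and 2.28 to 3.11% of the genes beyond 2-fold. For Dex against Cort the ranges were 2831 to 3452 higher and 3081 to 3648 lower. In WT livers they were 472 to 1425 and 260 to 1290, in E47KO livers 1714 to 2993 and 1505 to 2934, and for the interaction 0 to 10. Where 1 WT Dex liver was left out, the other was assumed to vary as the untreated ones do.

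The replicate numbers are shared between arms without a stated pairing, and with the number as a replicate block 2894 genes were higher and 2846 lower. The WT comparison with a replicate block gave 2677 and 2433 genes, and the E47KO comparison 1029 and 1049, on the fewer livers that share a number. Under the block Pck1 was not called. The cause of these shifts was not tested. The Dex libraries held fewer reads than the others, and 3 reads in each correspond to a mean of 0.152 CPM, so that levels near or under this rest on a few reads.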
